A study of Sus scrofa with 189 samples.

Results

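The nuclear genes of complexes II to V of the mitochondrial respiratory chain were described in the longissimus dorsi, a muscle that runs along the back, of 189 pigs from a cross of Duroc boars with Luchuan sows. Members were all genes outside chromosome MT whose symbol starts with SDHA, SDHB, SDHC, SDHD, UQCR, CYC1, CYCS or ATP5, or with COX followed by a digit from 4 to 8. This gave 31 of the 12651 listed genes. They comprise 3 subunits and 2 assembly factors of complex II, 5 subunits of complex III, cytochrome c itself, 10 subunits of complex IV with the supercomplex factor COX7A2L, and 8 subunits of complex V with its factor B. This rule uses symbol and chromosome only and no measured level, though it was set with earlier results of these data known. Another 10 genes of these complexes, SDHC, SDHAF2, UQCRFS1, UQCR11, COX7B, COX7C, COX8A, ATP5MC1, ATP5MK and ATP5PF, carry no symbol in the deposited table, were named here from their identifiers, and are not members.

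In the inner mitochondrial membrane, complex II (succinate dehydrogenase) takes electrons from succinate of the citric acid cycle, complex III passes electrons on to cytochrome c, and complex IV (cytochrome c oxidase) hands them to oxygen. Complexes III and IV pump protons as they work, and complex V (ATP synthase) makes ATP from the returning protons. All subunits of complex II are encoded in the nucleus. Mitochondrial DNA encodes cytochrome b of complex III, the catalytic core of complex IV and part of the membrane channel of complex V. In skeletal muscle, mitochondria are denser in slow oxidative fibres than in fast glycolytic ones, and several oxidase subunits exist in a muscle type and a broadly expressed type.

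All animals were of the same cross, fed on 1 farm, and slaughtered at 210 ± 6 days of age, and muscle was taken shortly after death. The labels give intramuscular fat content (IMF, unit not stated) for 164 animals. The titles of 21 libraries carry the mark re-analyzed, which the labels do not explain: 10 of them had high IMF (6.03 ± 0.636, SD, from 4.83 to 6.84) and 11 low IMF (1.69 ± 0.433, from 0.77 to 2.33). Of the unmarked libraries, 143 had IMF from 1.19 to 5.61 (3.34 ± 0.850) and 25 had none recorded. Because the re-analyzed libraries come from the ends of the IMF range, the mark cannot be told apart from the choice of extreme animals. The labels give 8 boars and 2 different numbers of sows (112 and 158), and do not say which animals are related, so p-values count the animals as independent.

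Levels are FPKM (fragments relative to transcript length and to all mapped fragments) summed over a gene's listed transcripts. Comparisons of level between genes therefore depend on the listed transcript lengths. The unit was inferred from the values, depth is unknown, and errors are the spread between animals. Summed FPKM lay between 364109 and 465105 per library, and the part on chromosome MT between 2.69% and 13.4%. The tissue label was borne out by its markers: skeletal actin ACTA1 averaged 27441 ± 8737 FPKM and the fast myosin MYH4 1984 ± 817 FPKM (SD, n = 189). Of the liver genes, ALB averaged 0.246 FPKM (highest library 13.0), while APOA1 averaged 7.76 ± 4.73 FPKM (highest library 50.3). Correlated with each other library in turn, the median was lowest for unmarked libraries 39 (0.909), 122 (0.909) and 92 (0.920), against a median of 0.954 over all libraries. In bulk muscle, fewer cells of a type and less RNA per cell cannot be told apart.

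The members were abundant. All 31 exceeded a mean of 0.5 FPKM and entered every test, 29 reached 5 FPKM, 25 lay in the upper 10% of all listed genes, and none was at 0 in any library. The lowest, median and highest summed level was 2256, 3190 and 4653 FPKM, which is from 0.558% to 1.07% of a library. They lie on 16 chromosomes, so the set is no genomic cluster. Most varied little between animals: the SD of log2(FPKM + 1) was below the median of all genes (0.37) in 21 members, whose median over all 31 was 0.31.

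**Figure D1:**
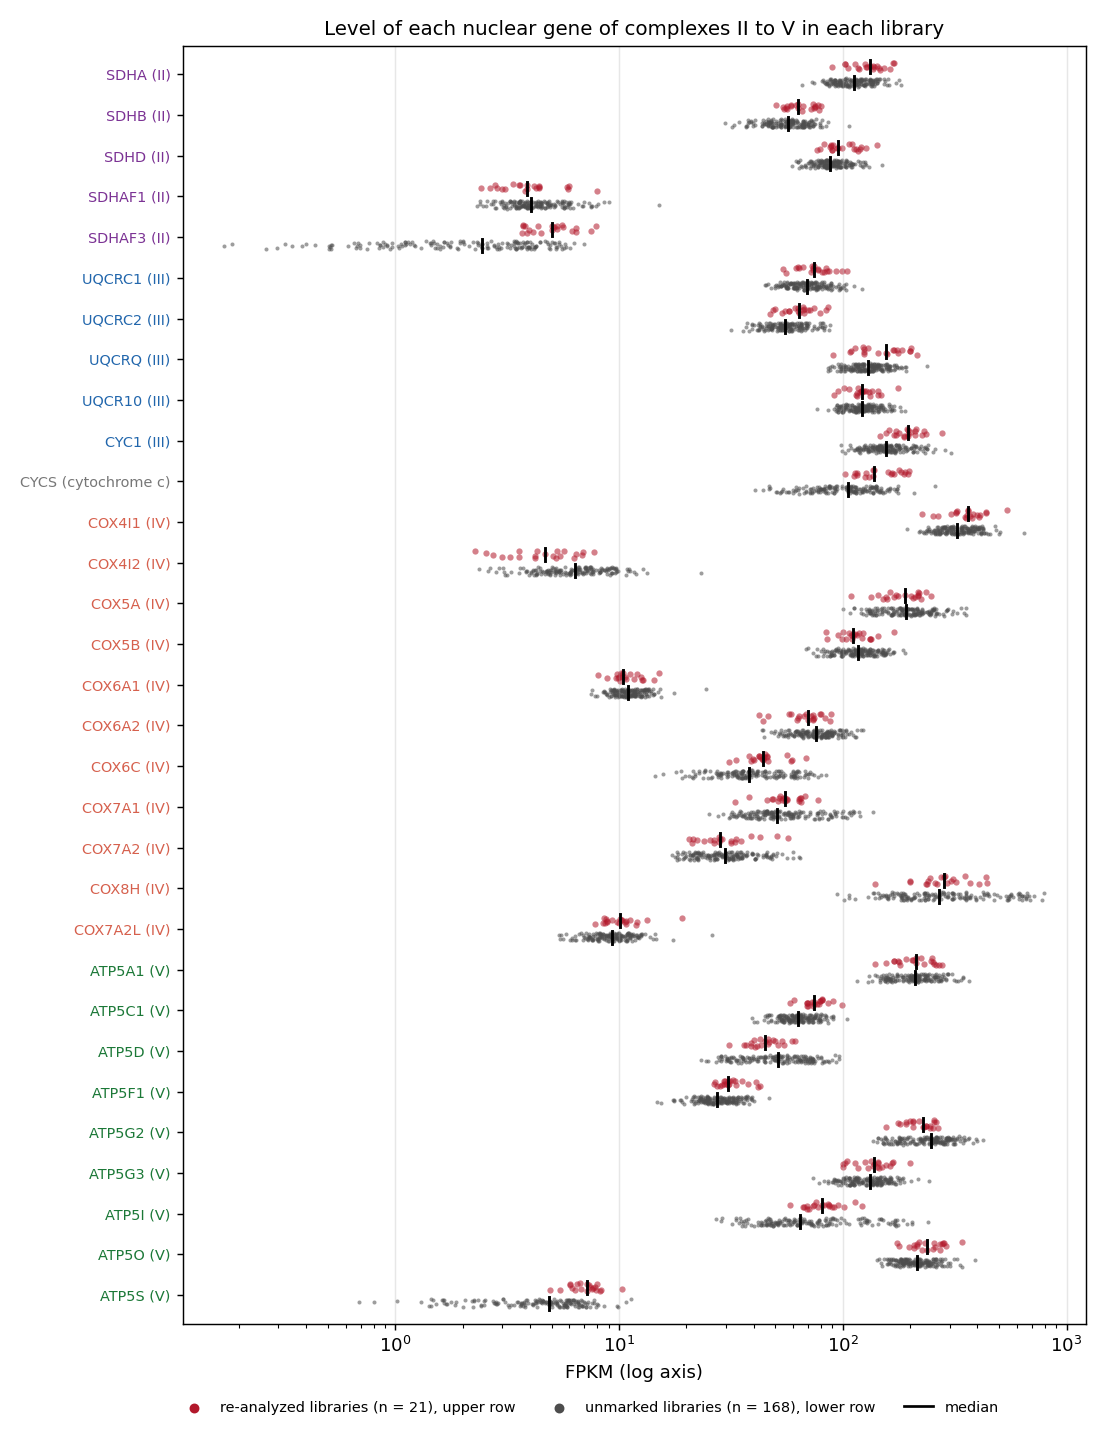
FPKM (log axis) of each of the 31 members in each library. For each gene the upper row of red points shows the 21 re-analyzed libraries and the lower row of grey points the 168 unmarked ones, and black ticks are medians. SDHAF3 and ATP5S reach far lower in unmarked libraries than in re-analyzed ones, while COX8H and ATP5I spread widely.

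In complex II, the flavoprotein SDHA, which oxidises succinate, was the highest member at 115 ± 22.1 FPKM (SD, n = 189; lowest 65.6, median 113, highest 182). The membrane anchor SDHD averaged 91.2 ± 15.7 FPKM, and the iron-sulphur subunit SDHB 58.2 ± 12.0 FPKM. The assembly factors were far lower. SDHAF1 averaged 4.41 ± 1.5 FPKM and SDHAF3, which helps to mature SDHB, 2.86 ± 1.77 FPKM. SDHAF3 was the most variable member (SD of log2(FPKM + 1) 0.72), with a lowest value of 0.172, a median of 2.82 and a highest value of 7.90 FPKM.

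Complex III members lay within a narrow band of levels. Cytochrome c1 (CYC1), which hands electrons to cytochrome c, led with 166 ± 37.5 FPKM (lowest 98.7, median 160, highest 306). The small subunits UQCRQ (134 ± 27.3 FPKM) and UQCR10 (124 ± 20.4 FPKM) followed, and the large core proteins UQCRC1 (71.1 ± 14.1 FPKM) and UQCRC2 (57.5 ± 11.4 FPKM) were lower. UQCR10 was among the least variable members (SD 0.23 on the log2 scale). Cytochrome c itself (CYCS) averaged 110 ± 37.7 FPKM, with a lowest value of 40.5, a median of 109 and a highest value of 259 FPKM.

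Complex IV held both the highest member and several of the lowest ones. COX4I1, the common form of subunit 4, averaged 336 ± 67.2 FPKM. COX8H, a heart and muscle form of subunit 8, averaged 315 ± 157 FPKM and was the second most variable member (SD 0.68), with a lowest value of 94.4, a median of 273 and a highest value of 797 FPKM. COX5A (196 ± 50.7 FPKM) and COX5B (118 ± 23.6 FPKM), which encode subunits 5A and 5B, were next. The lowest were COX4I2 (6.40 ± 2.53 FPKM), the lung form of subunit 4 that responds to low oxygen in other mammals, COX7A2L (9.60 ± 2.38 FPKM), which links complexes III and IV, and COX6A1 (11.2 ± 1.92 FPKM). COX6A1, the broadly expressed form of subunit 6A, was the least variable of all members (SD 0.21). COX6A2, COX7A1, COX6C and COX7A2 lay between, with means from 31.2 to 76.1 FPKM.

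Complex V was led by ATP5G2 (241 ± 58.1 FPKM), 1 of the genes for the identical mature c subunit of the rotor ring, and by ATP5O (219 ± 42.5 FPKM), the stalk protein that ties the catalytic head to the membrane part. ATP5A1, the catalytic head's alpha subunit, averaged 214 ± 47.5 FPKM. The lowest were factor B, ATP5S (5.01 ± 2.08 FPKM), ATP5F1 (28.5 ± 5.52 FPKM), the b subunit of the outer stalk, and ATP5D (52.0 ± 16.8 FPKM), the delta subunit of the central shaft. ATP5C1, the gamma subunit of the same shaft, averaged 65.2 ± 11.6 FPKM. The listed transcripts of ATP5F1 (5520 bases) and ATP5D (4448 bases) are the longest among complex V members, which bears on their FPKM rank. ATP5I, the small e subunit of the membrane part, averaged 80.2 ± 41.4 FPKM and was the third most variable member (SD 0.66; lowest 27.1, median 68.6, highest 241 FPKM), followed by ATP5S (SD 0.57). ATP5C1 (SD 0.25) and SDHD (SD 0.24) completed the least variable 4. The remaining c subunit gene, ATP5G3, averaged 132 ± 27.7 FPKM.

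The muscle forms of subunits 6A and 7A had higher mean FPKM than their broadly expressed forms. The listed transcripts differ in length within these pairs: COX6A2 has 2724 bases and COX6A1 4893, COX7A1 2324 and COX7A2 545. How far this shapes the ratios was not tested. Mean ratios are geometric, taken from the mean log2 ratio over the libraries. COX6A2, the striated muscle form, was a mean of 6.72-fold as high as COX6A1 (lowest ratio 1.81, highest 11.3) and exceeded it in 189 of 189 libraries. COX7A1, the heart and muscle form of subunit 7A, was 1.83-fold as high as COX7A2, its broadly expressed counterpart, and exceeded it in 188 of 189 libraries; the exception (ratio 0.665) was a re-analyzed library of low IMF. COX4I2 stood at a ratio of 0.0181 to COX4I1 and exceeded it in 0 of 189 libraries. The 3 c subunit genes shared the c subunit pool, as ATP5G2 held 46.2 ± 6.92% of their summed FPKM, ATP5MC1, matched by identifier, 28.5 ± 5.23%, and ATP5G3 25.3 ± 2.97% (SD, n = 189). Reads of genes this similar could have been assigned to either one in the authors' quantification.

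**Figure D2:**
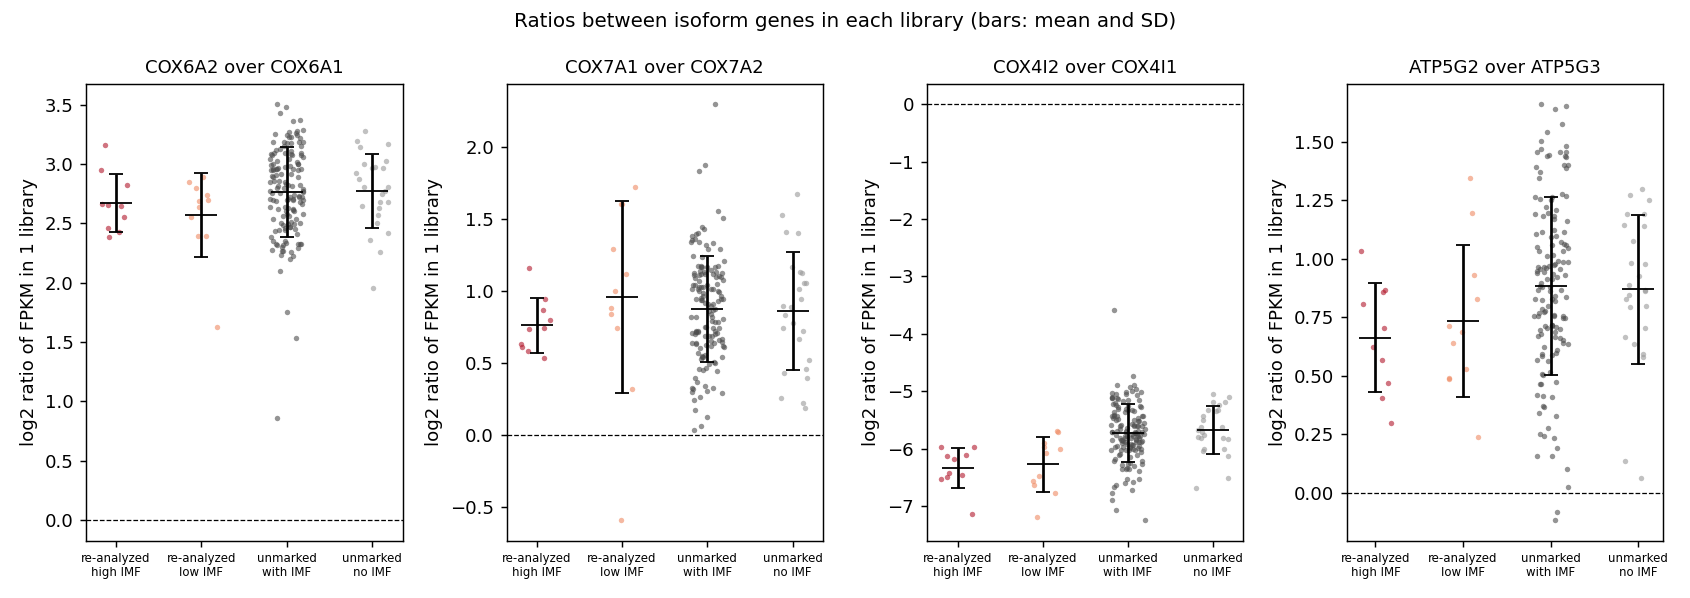
Log2 ratio of 2 related genes in each library, by group (points: libraries, bars: mean and SD; n = 10, 11, 143 and 25 from left to right). The dashed line marks equal levels; COX6A2 over COX6A1 lies above it in all libraries and COX4I2 over COX4I1 far below it.

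Whether the members follow IMF was tested in the 164 animals that have one, and separately between the ends of the range. In neither test was any of the 31 members called (limma, Benjamini-Hochberg adjusted over 10717 genes, threshold 0.05), where 0.084% of all genes were called in each. Over the 164 animals, 3 members had an unadjusted p under 0.05, against 527 of all genes. They were COX6A2 (slope 0.05 log2 units per IMF unit, SE 0.021), UQCRQ (0.04, SE 0.020) and SDHD (0.03, SE 0.016), and the smallest adjusted p of a member was 0.912. The slope was positive in 28 of 31 members, with a median of 0.02, as in 74.6% of all genes, whose median was 0.01. The members' median was 0.0030 in unmarked libraries alone, against 0.012 over all genes, and 0.0059 after quantile normalization and 0.0079 after a shift of each library to a common median.

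UQCRQ, a small complex III subunit that binds ubiquinone, had a lowest, median and highest value of 124, 176 and 216 FPKM at high IMF (10 re-analyzed libraries), against 90.6, 124 and 184 FPKM at low IMF (11 libraries). The ranges overlapped, and the difference of 0.38 log2 units (SE 0.13) had an unadjusted p of 0.00883 and a limma adjusted p of 0.835. COX7A2 differed by 0.35 (SE 0.15) and COX6A2 by 0.30 (SE 0.12), which had 58.5, 76.3 and 88.6 FPKM at high IMF and 42.1, 63.7 and 74.7 FPKM at low IMF. UQCR10, SDHD and ATP5F1 completed the 6 members with an unadjusted p under 0.05, against 475 of all genes, and differed by 0.20 to 0.23. The estimate was positive in 27 of 31 members (median 0.16), while 73.0% of all genes were positive (median 0.07). COX8H (-0.08), SDHAF3 (-0.04), ATP5I (-0.02) and ATP5S (-0.003) were the 4 with a negative estimate. After quantile normalization the median was 0.06 over the members and 0.00065 over all genes. Fat cell markers moved in the same animals: 3 of 5 adipocyte genes were called higher at high IMF. Their part in the members' values was not tested.

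No member was called for a different slope on IMF in re-analyzed and unmarked libraries (limma interaction, 0 of 10717 genes called, 0%). This does not show that the slopes are alike. The estimated difference was positive in 24 of 31 members (median 0.037), and in 54.2% of all genes (median 0.0043). Here 1 member, UQCRQ (0.09 log2 units per IMF unit more in re-analyzed libraries, SE 0.039), had an unadjusted p under 0.05, as did 176 of all genes.

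With IMF as a linear covariate, the 21 re-analyzed libraries differed from the 143 unmarked ones in 14 of 31 members. Of the 31, 12 were higher (38.7%), where 18.3% of all genes were, and 2 were lower (6.45%), where 22.7% of all genes were. IMF reached from 0.77 to 6.84 in re-analyzed animals and from 1.19 to 5.61 in unmarked ones. Beyond the unmarked range the comparison rests on the linear fit. The higher members were spread over complex II (4 of 5), complex III (3 of 5), cytochrome c and complex V (4 of 9). In complex IV 0 of 11 were higher and 2 lower. Whether the complexes differ was not tested. The median difference was 0.12 over the members and -0.01 over all genes.

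The largest difference was that of SDHAF3. It had a lowest, median and highest value of 3.67, 5.04 and 7.90 FPKM in re-analyzed libraries, against 0.172, 2.58 and 6.98 FPKM in unmarked ones, 0.85 log2 units more in re-analyzed libraries (SE 0.16, adjusted p = 5.97e-06 by limma). The 2 sets overlapped, but no re-analyzed library reached down to the unmarked median. ATP5S, which couples the membrane part of ATP synthase to its head, had 4.94, 7.21 and 10.3 FPKM in re-analyzed libraries and 0.692, 4.93 and 11.3 FPKM in unmarked ones (0.55, SE 0.13, adjusted p = 0.000220). Here too the lowest re-analyzed library stood at about the unmarked median. CYCS had 103, 138 and 197 FPKM in re-analyzed libraries and 40.5, 106 and 259 FPKM in unmarked ones (0.53, SE 0.11, adjusted p = 6.77e-05), so that all re-analyzed libraries lay within the unmarked range and in its middle or upper part.

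The other called subunits differed less. CYC1 had 146, 195 and 277 FPKM in re-analyzed libraries and 98.7, 156 and 306 FPKM in unmarked ones (0.28, SE 0.071, adjusted p = 0.000976). ATP5C1, the shaft that turns inside the ATP synthase head, had 58.3, 74.5 and 99.2 FPKM in re-analyzed libraries and 39.1, 62.9 and 104 FPKM in unmarked ones (0.26, SE 0.059, adjusted p = 0.000261). SDHA had 89.7, 132 and 169 FPKM in re-analyzed libraries and 65.6, 113 and 182 FPKM in unmarked ones (0.21, SE 0.063, adjusted p = 0.00427). In each of these 3 genes the sets overlapped over most of their range. ATP5F1, SDHB, UQCRQ, UQCRC2, ATP5O and SDHD were higher by 0.16 to 0.19, with adjusted p from 0.0108 to 0.0227. After quantile normalization 6 members were called higher and 2 lower, in place of 12 and 2, and SDHA, SDHB, SDHD, UQCRQ, UQCRC2 and ATP5O lost their call. Under that scaling 21.5% of all genes were higher and 21.2% lower, so the members' share of higher calls (19.4%) was no longer above that of all genes. ATP5O also lost it without re-analyzed library 136 (adjusted p = 0.0544).

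Both members that were lower encode oxidase subunits with a second form. COX4I2 had 2.28, 4.69 and 7.72 FPKM in re-analyzed libraries and 2.37, 6.11 and 23.1 FPKM in unmarked ones (-0.37, SE 0.11, adjusted p = 0.00279). Within a library, its log2 ratio to COX4I1 averaged -6.31 ± 0.416 in re-analyzed libraries and -5.73 ± 0.508 in unmarked ones with IMF (SD, n = 21 and 143). COX6A2 had 42.1, 70.3 and 88.6 FPKM in re-analyzed libraries and 43.4, 74.5 and 120 FPKM in unmarked ones (-0.19, SE 0.072, adjusted p = 0.0281). Its call was lost without any 1 of the re-analyzed libraries 69, 104 and 128 (limma adjusted p from 0.0637 to 0.0749) and after a shift of each library to a common median. It was also lost with the slow fibre level or the first 4 title digits as a covariate. These digits were read here as year and month, which the labels do not state.

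**Figure D3:**
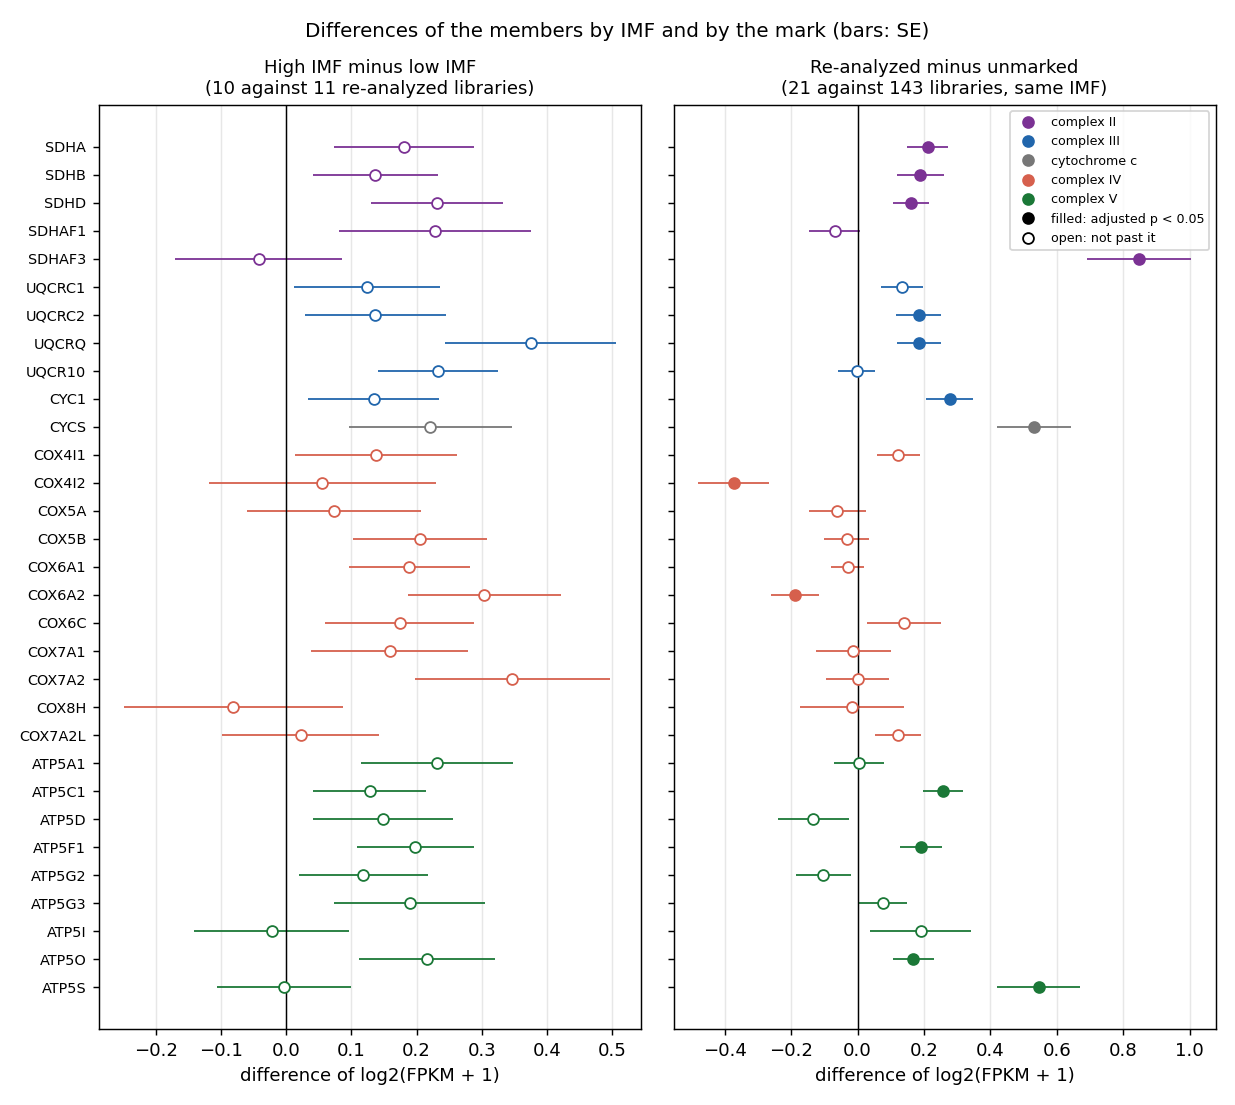
Difference of log2(FPKM + 1) for each member between high and low IMF among re-analyzed libraries (left, n = 10 and 11). The right panel shows re-analyzed against unmarked libraries with IMF as a linear covariate (n = 21 and 143), which its title calls same IMF. Bars are SE and filled points passed an adjusted p of 0.05. No point is filled on the left; on the right, 12 are filled above 0 and 2 below it, both of complex IV.

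Related lists are read against the same 18.3% of all genes higher and 22.7% lower. Of 34 nuclear complex I genes 20 were higher and 0 lower in re-analyzed libraries, and of 25 measured assembly genes of complexes II to V, among them SDHAF1 and SDHAF3, 12 were higher and 1 lower. Of the 10 genes named by identifier 5 were higher and 1 lower, as were 5 and 1 of the 13 protein genes of chromosome MT. Of 11 enzymes of the citric acid cycle 3 were higher and 1 lower, and of 9 regulators of mitochondrial genes 2 were higher and 1 lower. Markers of other cell types were lower in the same libraries: 4 of 5 adipocyte, 5 of 5 fibroblast, 3 of 4 endothelial, 4 of 5 macrophage and 2 of 3 smooth muscle genes were called lower and 0 of them higher. Their part in the members' differences was not tested. With the summed level of chromosome MT as a covariate the same 14 members were called.

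Animals that share the first 9 digits of their title code were compared to see whether the members are alike within codes. The labels do not explain the code. In the 146 animals of the 48 shared codes, 2 members differed between codes, 6.45% of 31, where 1.82% of all genes did (moderated F test of limma). CYC1, on chromosome 4 from 606516 to 608996 of Sscrofa11.1, had an F of 2.47 (adjusted p = 0.0182) and an intraclass correlation (ICC, the share of variance between codes) of 0.34. Its code means ran from 110 to 253 FPKM, while the SD within codes was 31.2 FPKM. COX6A2, on chromosome 3 from 17113357 to 17135104, had an F of 2.19 (adjusted p = 0.0375) and an ICC of 0.30, with code means from 46.2 to 97.8 FPKM and an SD within codes of 13.7 FPKM. The codes with the lowest and the highest mean held 2 animals each. SDHA followed with an ICC of 0.26 (adjusted p = 0.0816), and ATP5S had the lowest ICC (-0.11). The call of COX6A2 was lost without unmarked library 39 (adjusted p = 0.0801), and both calls were lost after quantile normalization, after rescaling to nuclear genes and with codes of 6 digits.

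Most members followed a mean level of slow fibre genes, but with the slow myosin gene MYH7 alone only 10 of 31 were called. A slow fibre level was taken as the mean log2(FPKM + 1) of MYH7, TNNT1, TNNI1, TNNC1, MYL2 and MYL3, the slow myosin and troponin genes, and ranged from 6.81 to 10.3 over the 189 libraries. It is a measure from the same libraries and shares their scaling with the members. With the mark as a covariate, 20 of 31 members (64.5%) rose with it, where 7.85% of all genes did, and 2 (6.45%) fell, where 32.2% of all genes did. The median slope was 0.15 over the members and -0.04 over all genes. The median of all genes turned to 0.02 after quantile normalization and 0.05 after a median shift, where that of the members was 0.14 and 0.23. After quantile normalization 21 members rose and 5 fell, where 27.3% and 23.6% of all genes did, and after a median shift 23 rose and 2 fell, where 39.5% and 23.2% did. After rescaling to nuclear genes 19 rose and 1 fell, where 3.6% and 16.8% did. Of the fast fibre genes 1 of 6 rose and 0 fell. Of the markers of other cells, 2 of 5 macrophage, 2 of 2 red blood cell, 1 of 4 endothelial and 1 of 2 nerve genes rose. So did APOA1, the 1 liver gene tested. Of the remaining markers, 0 of 5 adipocyte, 0 of 5 fibroblast and 0 of 3 smooth muscle genes rose. Their part in the members' slopes was not tested.

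By complex, 5 of 5 members of complex III rose, 7 of 9 of complex V, 5 of 11 of complex IV and 3 of 5 of complex II. The steepest slopes were those of ATP5D (0.37 log2 units per log2 unit of the slow fibre level, SE 0.050, limma adjusted p = 1.89e-09), COX4I1 (0.26, SE 0.029, adjusted p = 3.78e-13), COX5A (0.23, SE 0.042), UQCRC1 (0.23, SE 0.029), ATP5G3 (0.23, SE 0.033) and ATP5A1 (0.23, SE 0.035). ATP5G2, SDHB, UQCRQ, COX4I2, ATP5O, ATP5C1, COX6A2, UQCRC2, SDHA, UQCR10, COX5B, CYC1, ATP5F1 and SDHD rose by 0.07 to 0.22. SDHD lost its call after rescaling to nuclear genes, in unmarked libraries alone, with MYH7 alone and without the 2 farthest libraries (adjusted p from 0.0538 to 0.114). Both that fell were the assembly factor SDHAF3 (-0.28, SE 0.078, adjusted p = 0.00269) and ATP5S (-0.16, SE 0.065, adjusted p = 0.0438), and ATP5S lost its call without unmarked library 39 (adjusted p = 0.0639). CYCS (-0.07, SE 0.058), COX8H (-0.05, SE 0.083), COX7A1 (0.09, SE 0.060) and the others of the 9 remaining members did not pass the test. With MYH7 alone as the slow fibre level, 10 members rose and 0 fell, where 2.96% of all genes rose and 1.14% fell. Among the steepest, ATP5D (0.15, limma adjusted p = 0.0602), COX5A (0.084, adjusted p = 0.276) and ATP5G3 (0.10, adjusted p = 0.0538) then lost their call. So did ATP5G2, COX6A2, COX5B, UQCR10, COX4I2, ATP5F1, SDHD, SDHAF3 and ATP5S.

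Other lists of oxidative genes differed in their counts, read against 7.85% of all genes higher and 32.2% lower. Of the nuclear complex I genes, 18 of 34 rose and 2 fell with the slow fibre level, and of the enzymes of the citric acid cycle 8 of 11 rose and 1 fell. Of 25 measured assembly genes of complexes II to V 6 rose and 5 fell (median slope 0.0013), and of 9 regulators of mitochondrial genes 0 rose and 3 fell. Of the 13 protein genes of chromosome MT, 1 rose and 10 fell.

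The level of the mitochondrial genome's own transcripts sorted the members in both directions. It was taken as the log2 of the summed FPKM on chromosome MT and ranged from 13.4 to 15.7. With the mark as a covariate, 13 members (41.9%) rose with it, where 48.7% of all genes did, and 8 (25.8%) fell, where 21.3% of all genes did. The shares are close to those of all genes, so they are no result about the members. SDHAF3 (1.12 log2 units per log2 unit, SE 0.073), ATP5S (0.98, SE 0.052), CYCS (0.80, SE 0.053), ATP5I (0.69, SE 0.096), COX6C (0.69, SE 0.063) and COX8H (0.39, SE 0.11) rose most, with limma adjusted p of at most 0.000637. COX7A1, COX7A2, COX7A2L, ATP5F1, UQCRC2, SDHD and ATP5C1 rose by 0.10 to 0.33. ATP5D fell most (-0.56, SE 0.064, adjusted p = 5.88e-15), then ATP5G2 (-0.35, SE 0.052), COX4I2 (-0.34, SE 0.069), SDHAF1 (-0.23, SE 0.055), COX5A (-0.20, SE 0.059) and COX4I1 (-0.19, SE 0.044), with adjusted p of at most 0.00126. UQCRC1 and ATP5A1 fell by 0.15 and 0.12.

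These counts move with the scaling of the libraries. The median slope of all genes was 0.10, but -0.09 after quantile normalization or a median shift and 0.18 after rescaling to nuclear genes. The split of the members, 13 higher and 8 lower, became 10 and 12 after quantile normalization, 9 and 11 after the median shift, and 21 and 5 after rescaling to nuclear genes. The shares of all genes were 31.9% higher and 47.3% lower, 29.9% and 44.2%, and 61.1% and 11% under these 3 scalings. CYCS, SDHAF3, ATP5S, COX6C, ATP5F1, UQCRC2, ATP5D, COX4I2 and SDHAF1 kept their direction and their call in each of the alternatives run in which they were tested.

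Another library property moved with the members. The short-transcript level, chosen after the values were seen, is the mean log2(FPKM + 1) of the 287 other nuclear genes with no listed transcript over 500 bases. It ranged from 2.16 to 2.95 and averaged 2.61 ± 0.109 in re-analyzed libraries and 2.53 ± 0.172 in unmarked ones with IMF (SD, n = 21 and 143). After removal of set means it correlated with the chromosome MT level (Pearson's r 0.63, Spearman's rho 0.63) and with the slow fibre level (-0.29 and -0.29, n = 189). SDHAF3 (r 0.77, rho 0.77), COX6C (0.72 and 0.73), ATP5I (0.72 and 0.74), ATP5S (0.71 and 0.69) and CYCS (0.70 and 0.71) followed it most closely, and ATP5D (-0.70 and -0.71) and ATP5G2 (-0.60 and -0.63) ran against it. Each of these 7 had a permutation p of 1e-05, the smallest that 100000 permutations can give, and an adjusted p over 31 members of 2.07e-05 or less, and r moved by at most 0.033 without the 2 farthest libraries. As the level was chosen from these values and shares the members' scaling, these p-values are descriptive only. Only COX8H (336 bases) and ATP5I (432 bases) among the members are themselves that short, while the listed transcript of COX6C has 3208 bases and that of ATP5D 4448 bases. No source used here gives depth or RNA quality per library, and their part was not tested.

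With the short-transcript level as a covariate, 20 members rose with the slow fibre level and 0 fell, where 2.39% of all genes rose and 1.11% fell. Of the earlier 20, 19 were shared. COX4I2 lost its call (adjusted p = 0.132) and COX7A1 gained one (0.24, SE 0.051, adjusted p = 0.000663). SDHAF3 (-0.03, adjusted p = 0.833) and ATP5S (0.04, adjusted p = 0.747) no longer passed the test. For the chromosome MT level, 10 members rose and 3 fell, where 30.5% and 21.2% of all genes did. ATP5S (0.72, SE 0.061), SDHAF3 (0.64, SE 0.078) and CYCS (0.54, SE 0.061) still rose most, and 11 of the 21 earlier calls were kept. COX8H, COX7A1, COX7A2, COX7A2L, ATP5I, ATP5G2, COX5A, COX4I1, UQCRC1 and ATP5A1 lost theirs, and ATP5O (0.21) and SDHB (0.30) gained one. For the mark, 14 members were higher and 2 lower, where 14.1% and 26.7% of all genes were, and SDHAF3 (0.63, SE 0.10), CYCS (0.39, SE 0.083) and ATP5S (0.39, SE 0.091) were again the largest. For the title code, SDHA (adjusted p = 0.0315) and COX4I1 (adjusted p = 0.0360) joined CYC1 and COX6A2, 4 of 31 members, where 4.48% of all genes were called.

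**Figure D4:**
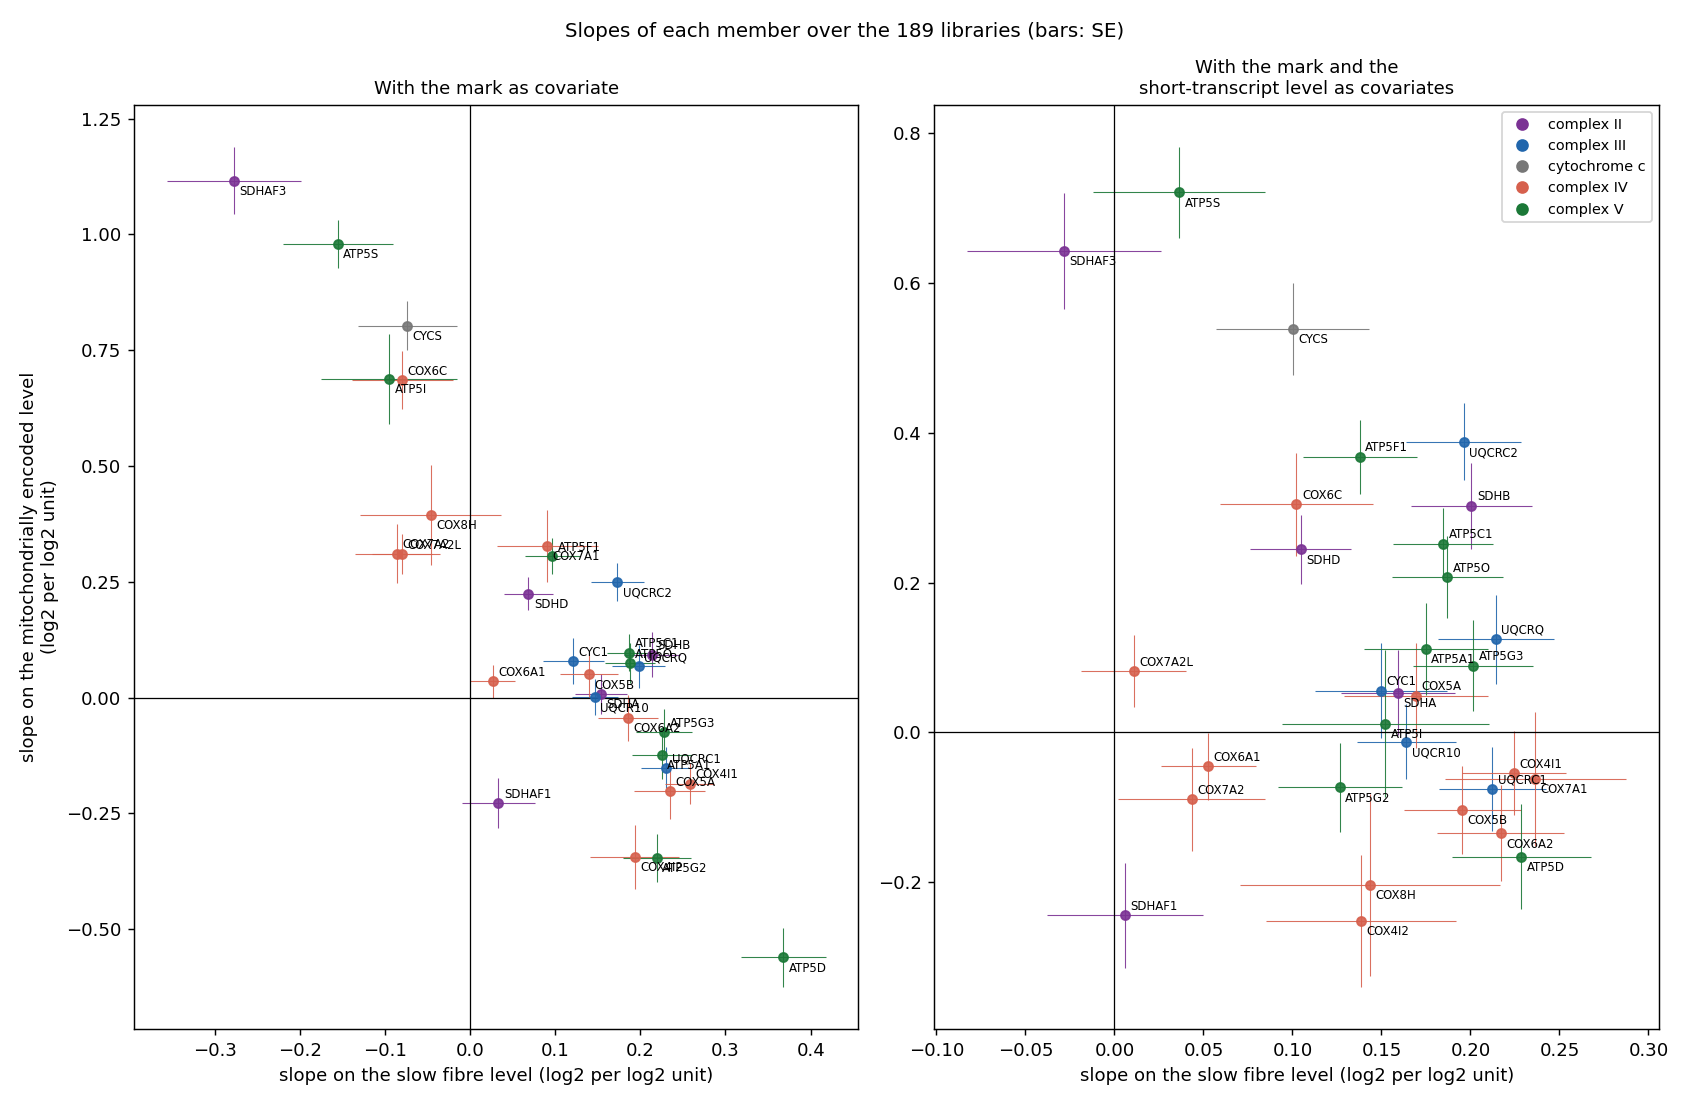
Slope of each member on the slow fibre level (horizontal axis) and on the summed chromosome MT level (vertical axis), in log2 per log2 unit over 189 libraries, with the mark as a covariate (left) and with the short-transcript level added (right); bars are SE, colours mark complexes, and the axes of the panels differ in range. On the left, SDHAF3 (-0.28 and 1.12) and ATP5D (0.37 and -0.56) mark the ends; on the right, most members lie to the right of 0, and SDHAF3, ATP5S and CYCS stay uppermost.

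The members did not vary as 1 block. After removal of set means, the 465 pairs of members had a median Pearson's r of 0.247 over the 189 libraries, and 110 pairs were negative. Pairs of the same complex had a median of 0.339 (111 pairs) and pairs of different complexes 0.234. Complex III was the most uniform, with a median of 0.455 and no negative pair, followed by complex V (0.406), complex II (0.231) and complex IV (0.182). All members share 1 scaling per library, so these values are descriptions of the libraries.

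The closest pair was COX7A1 and COX8H, the muscle forms of subunits 7A and 8 (r 0.90, rho 0.87). ATP5I was nearly as close to both, with r 0.89 and rho 0.85 for COX7A1 and r 0.89 and rho 0.87 for COX8H. COX6C, a small oxidase subunit, joined them (r 0.84 and rho 0.83 with ATP5I). SDHAF3 of complex II followed ATP5S of complex V across complexes (r 0.82, rho 0.80). ATP5D with ATP5G2, both of complex V (r 0.81, rho 0.81), and COX6A2 with COX5B, both of complex IV (r 0.81, rho 0.81), were pairs of the same complex. ATP5D and ATP5I, both subunits of ATP synthase, ran most against each other (r -0.70, rho -0.69). In all of these 8 pairs the permutation p was 1e-05, the smallest possible, with adjusted values over 465 pairs of 1.99e-05 and 1.95e-05, and r without the 2 farthest libraries moved by at most 0.014. The 8 pairs were picked as the highest and lowest r. The permutations test for no association at all, which shared scaling can break, and pairs of other genes were not examined. These p-values therefore do not set the pairs apart from other genes. UQCRQ had the highest median r with the other members (0.498) and COX8H the lowest (-0.058).

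**Figure D5:**
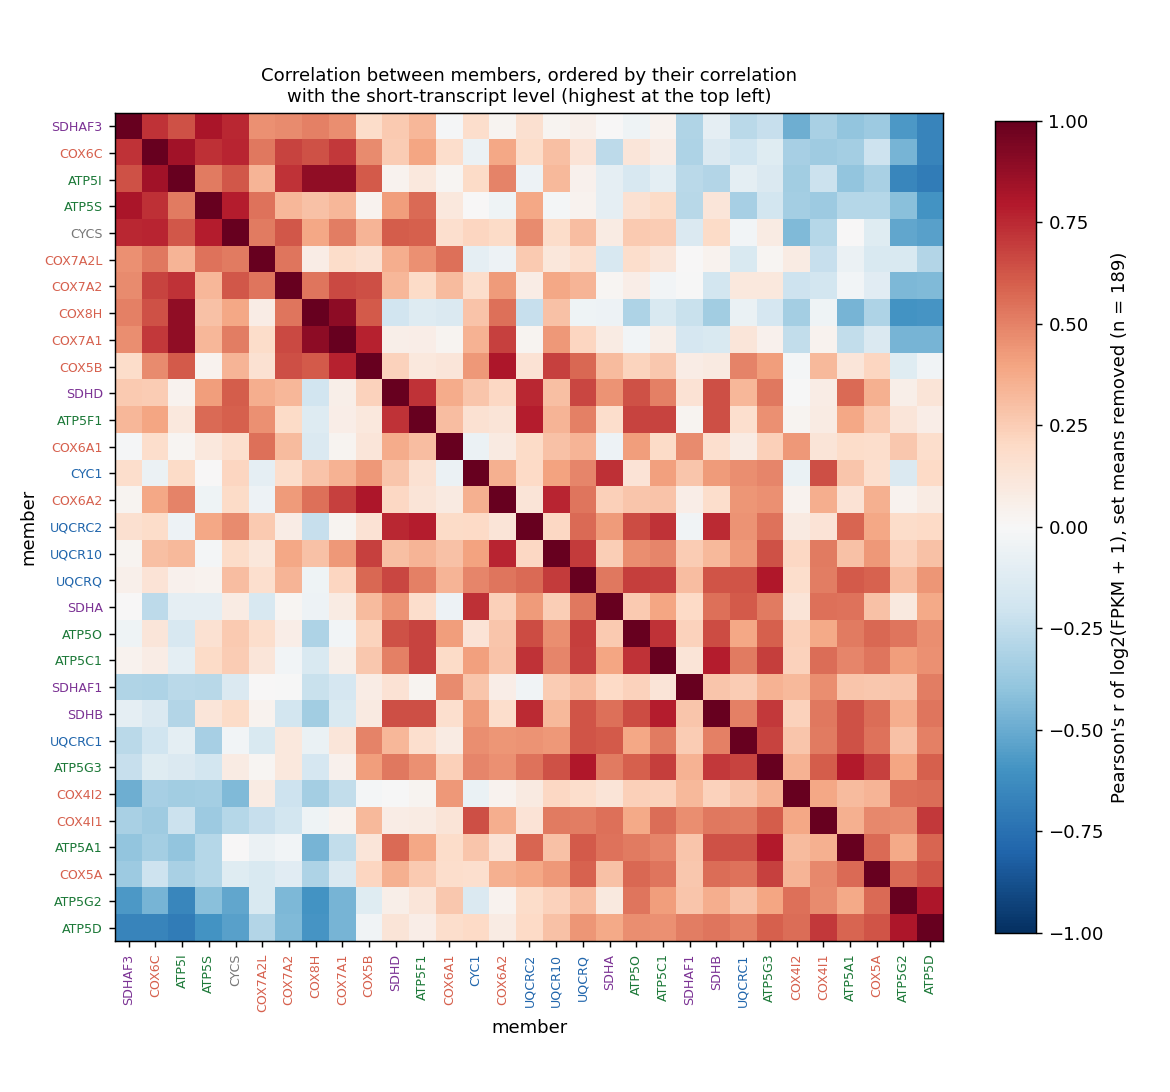
Pearson's r of log2(FPKM + 1) between all members over 189 libraries after removal of set means, ordered by each member's correlation with the short-transcript level, with labels coloured by complex. The block at the upper left holds SDHAF3, COX6C, ATP5I, ATP5S and CYCS, and ATP5G2 and ATP5D at the lower right are negative against it.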

How the data were processed

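Polyadenylated RNA was sequenced as paired-end Illumina libraries per the labels' protocols. HISAT2 2.0.5, StringTie 1.3.3 and Sscrofa11.1 are named in the submitters' processing notes. For the annotation and the transcript filter, nothing was found (not given in the sources used here). Values deposited by the authors were taken as FPKM from the column layout, since the header names no unit. No counts are given, so depth is unknown. FPKM were summed per gene over listed transcripts (18114 in all, 44 of members). Of all genes, 10717 averaged 0.5 FPKM or more and were tested on log2(FPKM + 1) with limma 3.58.1 (lmFit and eBayes with trend, R 4.3.3), 2-sided, and called where the Benjamini-Hochberg adjusted p over all of them was under 0.05. Differences on this scale understate the change of low genes. The mark was a covariate wherever both sets entered. The tests for IMF, the mark, the slow fibre level and the title code were checked on simulated data in which genes vary independently. The interaction, chromosome MT and permutation tests were not checked in this way.

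Members, gene lists and tests were chosen with earlier results of these data known. Named are all members called in a comparison (above 12, the 6 largest in each direction with values), the 3 highest and lowest of each complex, the 4 most and least variable, isoform pairs and c subunit genes. Alternatives changed the pseudocount, the filter, the scaling, the libraries or the covariates. Sequences are not used here.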

Additional observations from a re-analysis of the deposited data

Results flagged for a closer look

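Among the 10 re-analyzed libraries of high IMF, library 136 stood apart from the others in 3 members: COX7A1 at 77.6 FPKM (the next highest library had 64.2), COX8H at 408 FPKM (310) and ATP5I at 122 FPKM (86.8). The threshold for such a gap is passed by chance in about 1 in 20 groups, and 31 members were examined. The 3 genes also form the 3 highest correlations between members (r 0.89 to 0.90), so the 3 gaps are not independent of each other.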

How the results depend on the processing

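Counts of called members in the IMF tests were 0 under each alternative run, single libraries left out included. For the mark, the count of 14 was 8 after quantile normalization and 13 to 15 when each re-analyzed library was left out. For the title code, the count of 2 was 0 after quantile normalization, rescaling to nuclear genes or codes of 6 digits, 1 after a median shift, without library 39, without libraries 39 and 122 or in unmarked libraries alone, and 4 with the short-transcript level as a covariate. For the slow fibre level, the count of 22 was 10 with MYH7 alone. For the chromosome MT level, the count of 21 was 13 with the short-transcript covariate. That covariate turned the sign of ATP5S on the slow fibre level (0.036), and on the chromosome MT level those of COX7A2 (-0.089), ATP5A1 (0.11), COX8H (-0.20), COX5A (0.049) and COX7A1 (-0.062). On that level ATP5C1 also turned after quantile normalization (-0.033) and ATP5A1 after rescaling to nuclear genes (0.0080). None of these 8 passed the test, and the cause was not tested. Of 1068 recomputed calls of single members, 997 held, 63 were lost with their direction kept and 8 turned. Taking the highest transcript in place of the sum lowered 4 levels by more than their SD: UQCRC1 (42.6 FPKM), UQCRQ (93.3), ATP5A1 (160) and ATP5C1 (43.2). No analysis paired by library was possible because each library number is used once, so the groups share none. Some title codes hold both re-analyzed and unmarked animals, but a comparison within codes alone was not run for the mark. With the title code as a random term, 0 members were called for the IMF slope and 14 for the mark. Alternatives with chromosome MT, slow fibre or short-transcript covariates, or without the farthest libraries, were added after the data were seen. Without counts, the depth behind low members such as SDHAF3 and SDHAF1 is unknown.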

Other observations

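The 10 genes of these complexes that carry no symbol in the table, named here from their identifiers, differed widely in spread. COX7C, a small oxidase subunit, ranged from 0.211 to 68.5 FPKM (mean 18.3 ± 14.4, SD, n = 189), and ATP5MK, a small subunit of ATP synthase, from 35.9 to 475 FPKM (157 ± 106). UQCRFS1, the Rieske iron-sulphur protein of complex III, ranged only from 21.5 to 61.4 FPKM (36.9 ± 7.04), and the complex II anchor SDHC from 6.72 to 58.2 FPKM (30.6 ± 8.86). COX8H exceeded COX8A, the broadly expressed form of subunit 8, in 188 of 189 libraries, with a geometric mean ratio of 6.11.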
